A study of Mus musculus with 6 samples.

Results

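The genes described here are the carriers of the solute carrier (Slc) superfamily that move amino acids, sugars, monocarboxylates, amines, vitamins, nucleosides, fatty acids and inorganic ions across the plasma membrane. They were taken by symbol, as every gene of 19 Slc families in the array's annotation, and the choice of families was made with earlier results of these data known. That gave 137 genes of the 16593 with a named probe, and 61 of them were bright enough to test, of 8253 tested genes in all. The share tested was 44.5% of the transporters and 49.7% of all genes. They fell into 7 groups by their textbook substrate, and a few of them are known to sit on lysosomes, endosomes or mitochondria rather than at the cell surface.

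Every sample was total RNA of CD4+CD8+ (DP, double positive) thymocytes that had not yet been selected. All the mice carried the same genotype, AND.Rag1-/- on the H-2d background: AND is a transgenic T cell receptor for a moth cytochrome c peptide (MCC) bound to I-Ek, a class II molecule, Rag1 loss leaves it as the only receptor, and H-2d gives it no selecting ligand. The 7 h stimulation used plate-bound I-Ek dimers loaded with 1 of 3 peptides, which the labels call MCC (negative selection signals), gp250 (positive selection signals) and Hb (non-selecting signals). There were 2 arrays for each ligand, 6 in all. As models these are thymocytes of a single specificity, stimulated in a dish by ligand alone, and no unstimulated sample was used here. Whether both arrays of a ligand came from separate mice or cultures is not stated, so the p-values reflect no more than the spread among these samples and that spread may be technical.

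Cells take up most polar nutrients through carriers, since such molecules do not cross the lipid bilayer unaided. A T cell that is strongly stimulated is known to grow, and growth draws on amino acid, glucose, folate and nucleoside uptake, whereas ion carriers set cell volume, membrane potential and pH. Some carriers work as pairs of a transport chain and a glycoprotein chain, such as the Slc7 light chains with the heavy chain encoded by Slc3a2. Sodium-coupled carriers depend on the gradient kept up by the sodium pump.

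All levels below are normalized intensities on the log2 scale (background-corrected with an added offset, then quantile-normalized between arrays), so a difference of 1 is a doubling. Levels of different genes come from different probes and are not set against each other. A gene was called when limma's test over all probes gave an adjusted p under 0.05. Lack of overlap between arrays is common: MCC and Hb did not overlap for 6467 of the 8253 tested genes. For MCC and gp250 that number was 6528, and for gp250 and Hb 2896. Where neither array of a ligand detected a gene, its fold is written "at least" and was taken against the lowest signal detected on those arrays, or the probe's own where that was higher. Mean deposited intensity lay between 582 and 613 on the MCC arrays, 445 and 482 on those of gp250, and 470 and 488 on those of Hb. Each array detected 10519 to 11603 probes, replicates of a ligand correlated at 0.994, and precision is limited by how few arrays there are.

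The labelled cell type was checked against 10 thymocyte genes, of which 9 were tested and Cd8a was not detected well enough. With MCC against Hb, 7 of the 9 were lower, among them Cd4, at least 16.9-fold, and Rag1, with a log2 difference of -3.66, and Cd3g was higher by 0.52. The mice are labelled Rag1-/-, yet the Rag1 probe read 9.35 and 9.54 with MCC and 13.04 and 13.18 with Hb. What transcript that probe reads here was not determined, so its signal does not show a working Rag1 gene. The summed deposited intensity of the list lay between 61312 and 63176 with MCC, between 107409 and 107872 with gp250, and between 108731 and 114564 with Hb. Of 20 genes of other cell types on the array, 9 were tested, and 2 were higher and 5 lower with MCC than with Hb. In the order MCC, gp250 and Hb, the summed B cell list ran from 358 to 388, 1466 to 1729 and 1601 to 1626, and the stromal list from 795 to 804, 1737 to 1950 and 1769 to 1972. The erythroid list ran from 2751 to 2836, 3106 to 3729 and 2998 to 3482. The myeloid sum was 164 to 211, 195 to 219 and 199 to 244, and the natural killer sum 180 to 210, 170 to 212 and 218 to 224. The defining genes Alas2, Epor, Ms4a1, Adgre1, Itgam, Itgax, Lyz2, Col1a1, Krt5, Klrb1c and Ncr1 were not tested because they were too dim. The thymocyte, B cell and stromal sums were lower with MCC than with either other ligand without overlap, as was the erythroid sum, while the myeloid sums overlapped. The natural killer sum with MCC overlapped that with gp250 and lay below that with Hb. These sums do not stand for every gene of a list. In the B cell list Cd79b differed from Hb by -2.40, and Cd79a, called lower, was below background with MCC. In the stromal list Pecam1 differed by -1.67, while Krt8 was called higher, by 0.41. In the natural killer list Nkg7 was called higher, by 1.18, while Il18r1 was at least 3.08-fold lower. The part of these lists in the transporter results was not tested. In such bulk samples fewer cells of a type and less RNA per cell cannot be told apart.

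With MCC, the ligand labelled for negative selection, 36 of the 61 transporter genes differed from Hb: 19 rose and 17 fell. The genes that rose by 2-fold or more encode carriers of large neutral amino acids (Slc7a5), nucleosides (Slc29a1), sodium and protons (Slc9b2), folate (Slc19a1), aromatic amino acids (Slc16a10), biotin and pantothenate (Slc5a6), small neutral amino acids (Slc1a4 and Slc1a5) and cationic amino acids (Slc7a3). Those that fell by 2-fold or more, counting genes below background by their bound, encode the cystine-glutamate exchanger (Slc7a11), carriers of neutral amino acids (Slc6a19, Slc38a2 and Slc43a2), a potassium-chloride cotransporter (Slc12a7) and a lysosomal amino acid carrier (Slc38a9). The 19 higher genes are 31.1% of those tested, and 26.2% of all tested genes were called higher with MCC than with Hb. The 17 lower genes are 27.9%, and 28.8% of all tested genes were called lower, so the shares of transporters called lay near those of all genes.

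At 2-fold or more, 9 transporter genes were higher (14.8%) and 8 lower (13.1%) with MCC than with Hb. Over all tested genes those shares were 8.65% higher and 8.99% lower. Where genes below background are counted by their bound alone, 9 stayed at 2-fold higher and 6 at 2-fold lower. The median log2 difference over the transporters was 0.10, or 0.07 with such genes at their bound, and -0.04 over all tested genes. The median size without regard to sign was 0.53 for the transporters and 0.41 for all genes. Without any scaling between arrays, under which the median probe stood at 0.22 in place of -0.03, 24 transporters were called higher and 12 lower. Of all called probes the higher ones then made up 69.9%, against 48.5% as normalized here and 59% with scaling to a common median, under which 21 transporters were higher and 13 lower.

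The comparison of MCC with gp250, the ligand labelled for positive selection, gave 18 higher and 20 lower transporter genes. Over all tested genes 26.3% were called higher and 29.6% lower. At 2-fold or more 9 transporters were higher and 6 lower, or 9 and 4 with genes below background at their bound, where 8.81% of all genes were higher and 9% lower. Without scaling between arrays the counts were 26 higher and 11 lower, the median probe stood at 0.27 in place of -0.03, and 72.5% of all called probes were higher, against 48.7% as normalized here and 59.4% with median scaling. This comparison uses the same MCC arrays as the one with Hb, so below both are given side by side for each gene and neither is a check of the other.

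**Figure D1:**
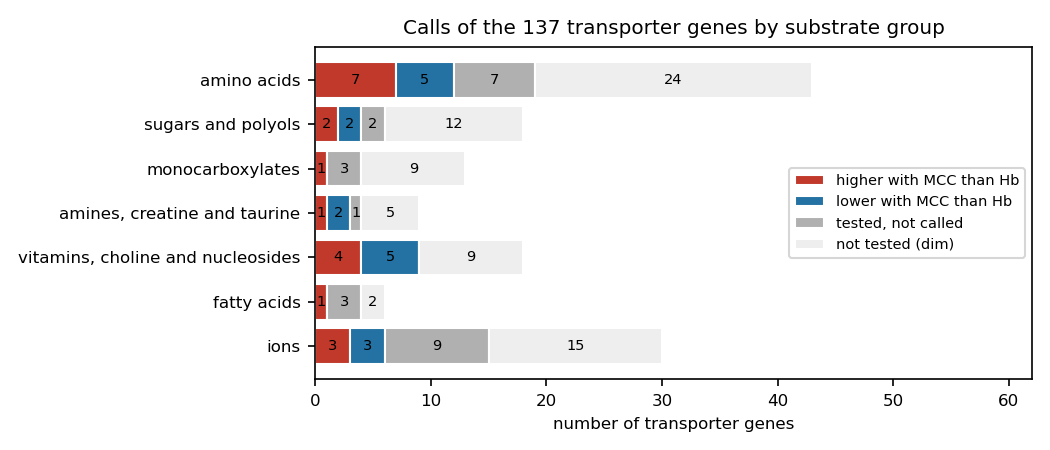
Number of transporter genes in each substrate group (bars, x axis) that were called higher, called lower or not called with MCC against Hb, or were too dim to test. Amino acid carriers form the longest bar, with 43 genes of which 19 were tested. All 9 tested genes of the group that holds vitamin, choline and nucleoside carriers were called, 4 higher and 5 lower. Of all tested genes 55.1% were called against Hb.

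Amino acid carriers went both ways. Of 43 on the array 19 were tested, and with MCC against Hb 7 rose, 5 fell and 7 were not called; against gp250 the counts were 6, 5 and 8. Carriers of neutral amino acids were among both the genes that rose and those that fell. The shares of all genes called were those given above, 26.2% higher and 28.8% lower against Hb.

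Slc7a5 encodes the light chain of the main carrier of leucine, phenylalanine and other large neutral amino acids. Its log2 level was 11.88 and 11.79 with MCC, 8.59 and 8.45 with gp250, and 8.51 and 8.66 with Hb. Both MCC arrays stood above all gp250 and Hb arrays, which overlapped each other. The difference was 3.25 ± 0.10 (log2, SE), or 9.52-fold, from Hb (adjusted p = 3.91e-06) and 3.32 ± 0.10, or 9.96-fold, from gp250 (adjusted p = 3.66e-06). Its partner chain, encoded by Slc3a2, had a single probe that was detected on 1 of 6 arrays, replicate 1 of MCC, where its detection p was 0.0263; elsewhere it ran from 0.0589 to 0.257. That probe was therefore not tested, and its levels of 5.97 and 5.73 with MCC, 5.07 and 5.25 with gp250, and 5.13 and 5.36 with Hb give no fold.

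Slc1a4 and Slc1a5 encode sodium-dependent exchangers of small neutral amino acids, the second being the best known route of glutamine into growing cells. For Slc1a4 the levels were 6.97 and 6.96 with MCC, 4.86 and 5.18 with gp250, and 5.07 and 4.91 with Hb. It was detected with MCC and on no gp250 or Hb array, so it was at least 2.39-fold higher than with Hb (adjusted p = 5.39e-05) and at least 2.52-fold higher than with gp250 (adjusted p = 5.62e-05). Slc1a5 read 7.01 and 7.06 with MCC, 5.70 and 5.83 with gp250, and 5.90 and 6.15 with Hb. MCC lay above both other ligands without overlap, by 1.01 ± 0.12 or 2.02-fold for Hb (adjusted p = 0.000534) and by 2.42-fold for gp250 (adjusted p = 0.000197). A second probe of Slc1a5 gave a log2 difference of 1.09 from Hb.

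Among the carriers of cationic amino acids, Slc7a3 encodes one for arginine, lysine and ornithine. Its levels were 6.91 and 6.72 with MCC, 6.08 and 5.94 with gp250, and 5.49 and 5.98 with Hb, with 1 of the Hb arrays below background. MCC was highest, by 1.08 ± 0.17 or 2.12-fold over Hb (adjusted p = 0.00243) and by 1.75-fold over gp250 (adjusted p = 0.00823), but a second, dimmer probe was below background with both MCC and Hb and was not called. Without replicate 1 of MCC the difference of Slc7a3 from gp250 was 0.70 and was no longer called. Slc7a6, which encodes a light chain that exchanges cationic for neutral amino acids, read 8.43 and 8.36 with MCC, 6.86 and 7.43 with gp250, and 7.28 and 7.85 with Hb. MCC did not overlap either ligand, but the arrays of gp250 and of Hb each lay far apart and overlapped each other: the difference from Hb was 0.83 ± 0.24 (adjusted p = 0.0265) and from gp250 2.37-fold (adjusted p = 0.00533). Its call against Hb was lost without replicate 1 of Hb (0.55), without replicate 1 of MCC (0.80) and without replicate 2 of MCC (0.87).

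The exchanger that brings in cystine and sends out glutamate, encoded by Slc7a11, supplies cysteine for glutathione. It read 5.14 and 5.48 with MCC, 9.26 and 9.34 with gp250, and 9.15 and 9.0 with Hb. Both MCC arrays were below background, and all gp250 and Hb arrays were far above it. The fall was at least 9.62-fold from Hb (adjusted p = 5.68e-06) and at least 11.2-fold from gp250 (adjusted p = 4.48e-06). Slc7a11 and Slc7a5 use the same heavy chain and moved in opposite directions.

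Slc6a19, best known as the carrier of neutral amino acids in gut and kidney epithelium, was bright in these thymocytes. It gave 7.09 and 7.38 with MCC, 10.62 and 10.52 with gp250, and 10.66 and 10.54 with Hb. The MCC arrays lay far below the rest, by 3.37 (log2) or 10.3-fold for Hb (adjusted p = 6.32e-06) and by 10.1-fold for gp250. It stayed detected on all 6 arrays.

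The Slc38 family carries glutamine and other neutral amino acids with sodium. Slc38a2, whose product is known to be induced when amino acids run short, read 11.79 and 11.93 with MCC, 12.78 and 12.77 with gp250, and 13 and 12.88 with Hb. It was lower with MCC on both arrays, 2.12-fold against Hb (adjusted p = 0.000202) and 1.89-fold against gp250, and a second probe differed from Hb by -0.88. Slc38a9 encodes a lysosomal protein that senses arginine for the mTORC1 kinase complex. Its levels were 7.37 and 7.55 with MCC, 8.97 and 8.71 with gp250, and 8.86 and 8.83 with Hb. MCC was again lowest without overlap, 2.62-fold against Hb (adjusted p = 0.000191) and 2.60-fold against gp250, and a second probe, below background with MCC, was at least 2.18-fold lower than with Hb. Of the other family members, Slc38a10 rose, by at least 1.49-fold over Hb, where it was below background. The glutamine carrier genes Slc38a1, with a log2 difference of 0.00, and Slc38a4, with 0.36, were not called, nor was Slc38a7, with -0.07. Slc38a1 lay near background, detected on 1 array of each ligand, so its difference does not show that it was unchanged.

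Slc43a2 encodes a sodium-independent carrier of branched-chain amino acids and phenylalanine. It gave 5.94 and 5.61 with MCC, 6.39 and 6.30 with gp250, and 7.05 and 6.59 with Hb, and 1 of the MCC arrays was below background. MCC was lowest without overlap, 2.06-fold lower than Hb (adjusted p = 0.00351). The gp250 arrays lay below those of Hb, a difference that was not called (adjusted p = 0.742). A second probe of Slc43a2, below background with MCC, was at least 1.22-fold lower with MCC than with Hb. Against gp250 the difference of MCC at the brightest probe was -0.57 (adjusted p = 0.0372). It was not called without replicate 1 of gp250 (-0.53), replicate 2 of gp250 (-0.61) or replicate 2 of MCC (-0.40). The glycine carrier gene Slc6a9 was at least 1.23-fold higher with MCC than with Hb, where it was below background. Slc7a7, Slc7a4, Slc1a2 and Slc1a6, which encode carriers of cationic amino acids or glutamate or, for Slc7a4, a protein of unsettled substrate, were not called, and of these Slc7a4 and Slc1a6 were below background with Hb.

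**Figure D2:**
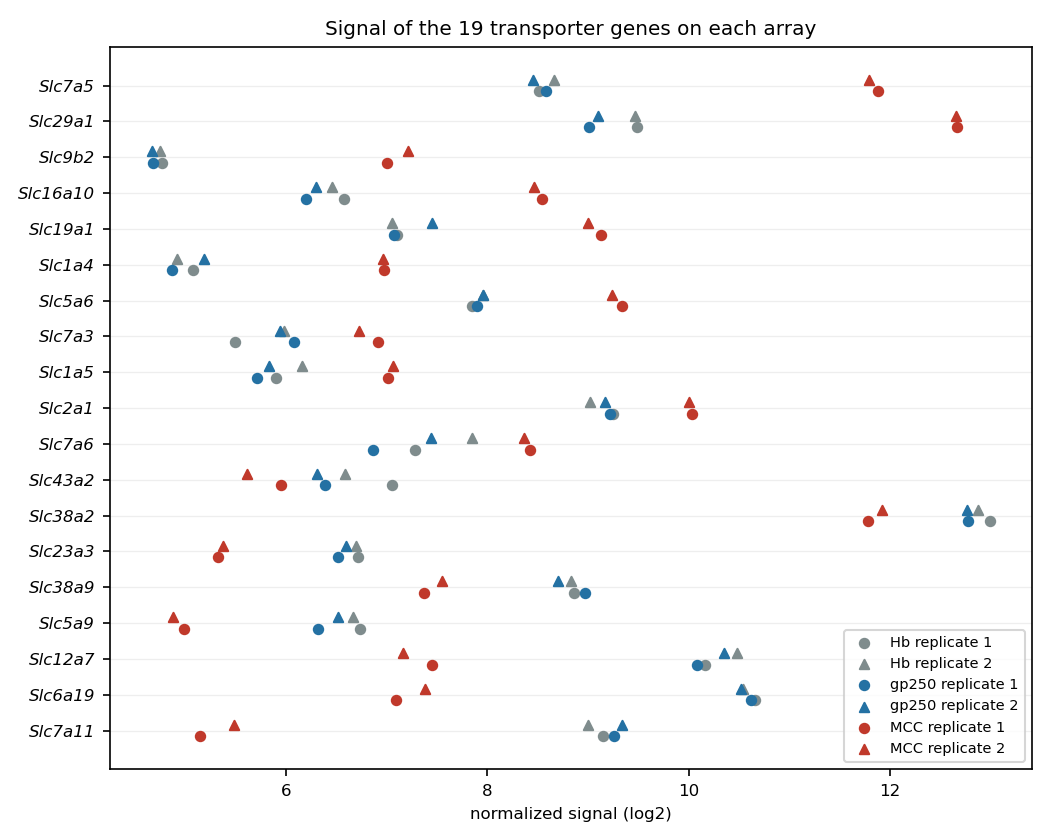
Normalized log2 intensity of 19 transporter genes named with a value on every array (1 line per gene, 1 point per array). Slc2a3 and Slc3a2, also given on every array in the text, are not drawn. Colours mark ligands and shapes replicates, and levels are compared within a gene only. The MCC points of Slc7a5, Slc29a1 and Slc9b2 lie above, and those of Slc7a11, Slc6a19 and Slc12a7 below, the gp250 and Hb points, which lie close together.

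Among the sugar carriers the glucose carrier genes Slc2a1 and Slc2a3 rose, and Slc5a9 and Slc2a8 fell. Of 18 genes on the array 6 were tested, and 2 rose, 2 fell and 2 were not called in each MCC comparison. That is 33.3% each way, where 26.2% of all tested genes were higher and 28.8% lower against Hb, and 26.3% and 29.6% against gp250. Slc2a1, the widespread basal glucose carrier, read 10.03 and 10.00 with MCC, 9.21 and 9.17 with gp250, and 9.25 and 9.02 with Hb. MCC was above both without overlap, by 0.88 ± 0.11 or 1.85-fold over Hb (adjusted p = 0.000703) and 1.77-fold over gp250. Slc2a3, a glucose carrier of high affinity, read 9.56 and 9.48 with MCC, 8.91 and 8.69 with gp250, and 8.64 and 8.48 with Hb. It was 1.94-fold higher with MCC than with Hb (adjusted p = 0.000712).

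Slc5a9 encodes a sodium-dependent carrier of mannose and related sugars. Its levels were 4.98 and 4.87 with MCC, 6.32 and 6.51 with gp250, and 6.73 and 6.66 with Hb. MCC was below background, so the fall was at least 1.85-fold from Hb (adjusted p = 3.6e-05) and at least 1.52-fold from gp250. Slc2a8, which encodes a glucose carrier of internal membranes, fell by 0.56 on the log2 scale, and its second probe was also called lower but was below background with MCC and gives no fold. The insulin-responsive glucose carrier gene Slc2a4 was too dim to test, and Slc2a6, below background with MCC, and Slc2a10 were not called.

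Monocarboxylate carriers gave a single call (25% of those tested), where 55.1% of all tested genes were called against Hb. Of 13 genes on the array 4 were tested, and Slc16a10, which encodes a carrier of aromatic amino acids and not of lactate, rose. It read 8.54 and 8.47 with MCC, 6.19 and 6.29 with gp250, and 6.57 and 6.46 with Hb. MCC lay above both without overlap, 3.97-fold above Hb (adjusted p = 1.52e-05) and 4.8-fold above gp250. The gp250 arrays lay below those of Hb, a difference that was not called (adjusted p = 0.73). The lactate exporter gene Slc16a3 differed from Hb by 0.10 and was not called, with replicates of MCC that were 6.47 and 5.92. Slc16a6 differed by -0.04 at its brightest probe and was not called, while another of its probes was called higher, by at least 1.36-fold, since it was below background with Hb. Slc16a9 was not called, and Slc16a1, the other common lactate carrier gene, was too dim to test.

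In the group of vitamin, choline and nucleoside carriers every one of the 9 tested genes was called in both MCC comparisons, 4 higher and 5 lower; 18 were on the array. Over all tested genes 26.2% were called higher and 28.8% lower against Hb, and 26.3% and 29.6% against gp250. Slc29a1 encodes the main equilibrative nucleoside carrier of the plasma membrane, which also brings in nucleoside drugs. It read 12.67 and 12.66 with MCC, 9.01 and 9.10 with gp250, and 9.48 and 9.47 with Hb. MCC lay above both without overlap, by 3.19 ± 0.09 or 9.12-fold for Hb (adjusted p = 2.79e-06) and by 3.61 or 12.2-fold for gp250 (adjusted p = 2.63e-06). The gp250 arrays lay below those of Hb, a difference that was not called (adjusted p = 0.716).

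Slc19a1 encodes the reduced folate carrier, which brings in the folates used to make purines and thymidylate. Its levels were 9.13 and 9.0 with MCC, 7.07 and 7.45 with gp250, and 7.10 and 7.05 with Hb. MCC was highest, 3.97-fold over Hb (adjusted p = 7.58e-05) and 3.50-fold over gp250. Slc5a6, the sodium-dependent carrier of biotin, pantothenate and lipoate, read 9.34 and 9.24 with MCC, 7.89 and 7.95 with gp250, and 7.85 and 7.96 with Hb. Its MCC arrays were both above the rest, 2.62-fold over Hb (adjusted p = 6.2e-05) and 2.58-fold over gp250.

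Of the genes that fell in this group 3 belong to the Slc23 family, none of whose tested members rose. Slc23a3, a relative of the ascorbate carriers, gave 5.32 and 5.37 with MCC, 6.51 and 6.60 with gp250, and 6.71 and 6.69 with Hb. It was below background with MCC, at least 1.86-fold lower than with Hb (adjusted p = 5.19e-05) and at least 1.68-fold lower than with gp250. Its relatives Slc23a2, an ascorbate carrier gene, and Slc23a4 had log2 differences of -0.53 and -0.58 from Hb. The thiamine carrier gene Slc19a2 differed by -0.33 and the lysosomal nucleoside carrier gene Slc29a3 by -0.39. The choline-transporter-like gene Slc44a2 was higher by 0.39, and 2 further probes gave 0.54 and 0.77.

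Several of these smaller calls against Hb were lost under another scaling or without a single array. With median scaling Slc29a3 was at -0.24, Slc19a2 at -0.26 and Slc23a2 at -0.42, and without scaling between arrays they were at -0.10, -0.12 and -0.28, none of them called. Slc44a2 was not called without replicate 1 of Hb (0.40), replicate 2 of Hb (0.39) or replicate 1 of MCC (0.34). Slc19a2 was not called without replicate 1 of Hb (-0.25), replicate 1 of MCC (-0.30) or replicate 2 of MCC (-0.36). For Slc29a3 the call was lost without replicate 1 of Hb (-0.38), replicate 2 of Hb (-0.40) or replicate 2 of MCC (-0.30), and for Slc23a2 without replicate 1 of Hb (-0.52) or replicate 1 of MCC (-0.47).

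Among carriers of amines, creatine and taurine 4 of 9 genes were tested, and 1 rose and 2 fell against each ligand. These are 25% and 50% of those tested, where 26.2% of all tested genes rose and 28.8% fell against Hb. The creatine carrier gene Slc6a8 rose by 0.50 on the log2 scale, the taurine carrier gene Slc6a6 fell by 0.59 (-0.26 and not called without scaling between arrays) and Slc6a13, which encodes a carrier of GABA and taurine, fell by 0.68. The call of Slc6a8 was lost without replicate 1 of MCC (0.32), replicate 2 of Hb (0.33) or either gp250 array (0.50 in each case). Of the fatty acid carriers 4 of 6 genes were tested. Slc27a6, which encodes a long-chain fatty acid carrier, rose by 0.77 over Hb, a call lost without replicate 2 of Hb (0.64), and Slc27a1 and Slc27a4, with differences of -0.35 and -0.29 from Hb, were not called, nor was Slc27a3, which was below background with MCC.

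Ion carriers held 30 genes, 15 of them tested, and 3 rose and 3 fell with MCC against Hb, and 3 and 5 against gp250. Those are 20% and 20% of the tested ion carriers against Hb, and 20% and 33.3% against gp250. Of all tested genes 26.2% were called higher and 28.8% lower against Hb, and 26.3% and 29.6% against gp250. The genes that rose encode carriers that bring in sodium with chloride or exchange it for protons, and the one that fell furthest encodes a carrier that lets potassium and chloride out. Slc9b2, a sodium-proton exchanger gene, read 7.0 and 7.21 with MCC, 4.68 and 4.66 with gp250, and 4.76 and 4.74 with Hb. It was detected with MCC alone, at least 2.63-fold higher than with Hb (adjusted p = 1.02e-05) and at least 2.78-fold higher than with gp250. Slc12a2, the sodium-potassium-chloride cotransporter that swells and loads cells with chloride, was 1.91-fold higher than with Hb at one probe, and its second probe differed by 0.90.

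Slc12a7, a potassium-chloride cotransporter that lets cells shrink, gave 7.44 and 7.16 with MCC, 10.08 and 10.36 with gp250, and 10.16 and 10.48 with Hb. The MCC arrays lay below all others, 8.13-fold against Hb (adjusted p = 2.56e-05) and 7.56-fold against gp250. The family thus held a carrier that rose and one that fell, while Slc12a3 and Slc12a9 differed from Hb by 0.12 and 0.06 and were not called. Slc9a9, an endosomal sodium-proton exchanger gene, rose by 0.60. Slc8b1, the gene of the mitochondrial sodium-calcium exchanger, was 1.77-fold lower, and the chloride-bicarbonate exchanger gene Slc4a2 differed by -0.36, a call lost with median scaling (-0.17), without scaling between arrays (-0.04), without replicate 1 of Hb (-0.33) or without replicate 2 of MCC (-0.35). Slc9a8 differed by 0.18 at its brightest probe, which was not called, and by 0.61 at its second, which was. The phosphate carrier genes Slc20a1 and Slc20a2 differed from Hb by -0.01 and 0.21 and were not called.

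Against gp250, Slc27a1, Slc20a1 and the sodium-bicarbonate carrier gene Slc4a8 were called lower, and none of these was called against Hb. The log2 difference was -0.41 for Slc27a1 and -0.34 for Slc20a1, and Slc4a8, below background with MCC, was at least 1.09-fold lower. Whether the gp250 and Hb values of these genes differ is given by the test between those ligands, which called none. These calls were near the threshold: each was lost with no filter on dim probes, in a fit of only the 4 arrays compared, without scaling between arrays and without 1 or more single arrays. Without scaling Slc27a1 was at -0.16 and Slc20a1 at -0.12. Leaving out replicate 1 of MCC took Slc20a1 to -0.22, and leaving out replicate 2 of gp250 took Slc27a1 to -0.28. Slc38a10 was called against Hb and not against gp250, from which it differed by 0.26. In the same comparison with gp250, Slc6a8 was not called without replicate 1 of MCC (0.43) or either gp250 array (0.61), Slc27a6 without replicate 2 of gp250 (0.61) or of MCC (0.54), and Slc44a2 without replicate 2 of gp250 (0.30) or replicate 1 of MCC (0.31).

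**Figure D3:**
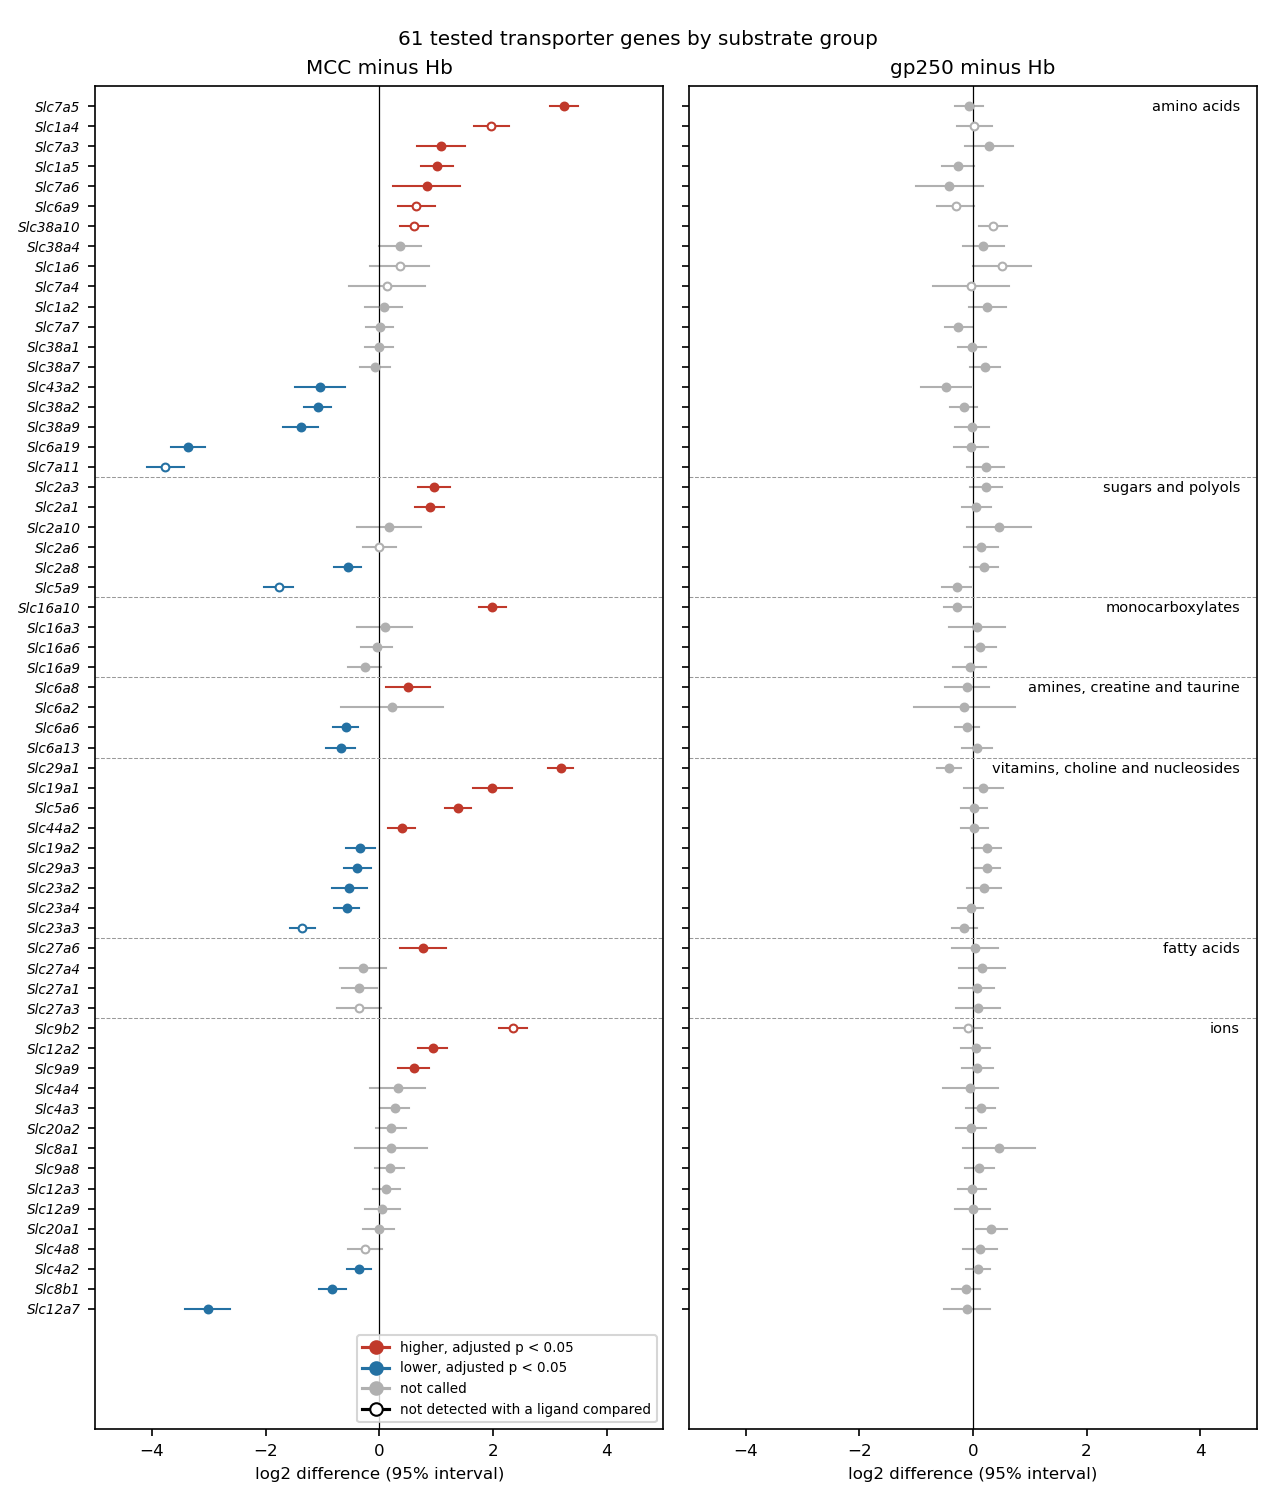
Log2 difference and 95% interval of each of the 61 tested transporter genes, 1 line per gene by substrate group, for MCC minus Hb (left) and gp250 minus Hb (right). Open points mark genes that at least 1 of the ligands compared did not detect, whose differences are fitted values and not bounds. Of the filled points, those on the left spread from -3.37 for Slc6a19 to 3.25 for Slc7a5, while all points on the right lie between -0.47 and 0.51.

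Between gp250 and Hb limma called no transporter gene, and over all 8253 tested genes the share called was 0%. The transporters' smallest adjusted p came to 0.716. An unadjusted p under 0.05 was reached by 8 of the 61 transporter genes (13.1%), where 6.22% of all tested genes passed. The fitted differences ran from -0.47 to 0.51 with a median of 0.04. The 95% interval lay inside a 2-fold change either way for 57 of the 61 genes, and for all 40 that were detected on every array.

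The smallest p was that of Slc29a1, with a log2 difference of -0.42 ± 0.09 and an interval from -0.63 to -0.21 (unadjusted p = 0.0026, adjusted p = 0.716). Both gp250 arrays lay below both Hb arrays for this nucleoside carrier gene, whereas MCC lay far above. Slc38a10, below background with Hb, was brighter with gp250, and the other genes with an unadjusted p under 0.05 were Slc20a1 (0.33), Slc29a3 (0.25), Slc7a7 (-0.25), Slc16a10 (-0.27), Slc5a9 (-0.28) and Slc43a2 (-0.47). These were chosen by their p, and none passed the adjusted threshold. Slc7a5 had a difference of -0.07 with an interval from -0.32 to 0.19, and Slc7a6 had -0.41 with an interval from -1.0 to 0.18, which leaves room for a change of almost 2-fold.

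**Figure D4:**
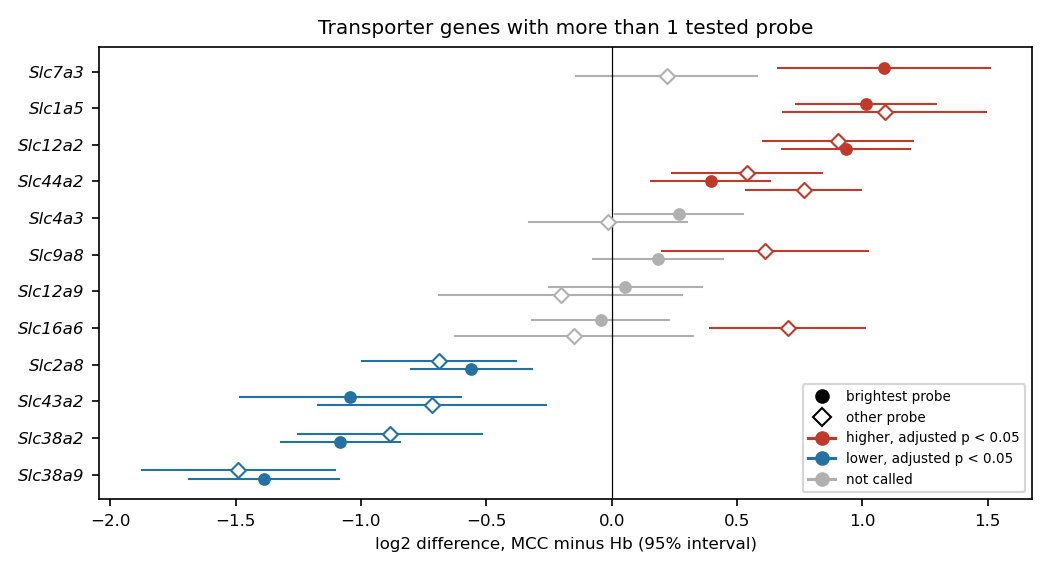
Log2 difference, MCC minus Hb, at each tested probe of the 12 transporter genes with more than 1 tested probe. For 9 of the genes all probes have the same call, and for Slc7a3, Slc9a8 and Slc16a6 they differ. Open points of Slc7a3, Slc12a9, Slc2a8, Slc43a2 and Slc38a9 and the highest of Slc16a6 are from probes that MCC or Hb did not detect.

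More than 1 probe was tested for 12 of the genes, and for 9 of them all probes gave the same call against Hb: 3 higher, 4 lower and 2 not called. The exceptions were Slc7a3, Slc9a8 and Slc16a6. Of the 76 transporter genes too dim to test, 24 were amino acid carriers, 15 ion carriers, 12 sugar carriers, 9 monocarboxylate carriers, 9 carriers of vitamins, choline and nucleosides, 5 amine carriers and 2 fatty acid carriers. They include the arginine carrier gene Slc7a1, the nucleoside carrier gene Slc29a2, the choline carrier gene Slc44a1 and the anion exchanger gene of red cells, Slc4a1. For those genes no change was detectable on these arrays, which does not show that they were absent.

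The proximal promoters of the transporters were searched for short motifs, as a description of the sequence. RefSeq windows on GRCm38.p6, each 300 bases from 250 before to 50 after a start site, were on hand for 46 of the 61 tested genes and 27025 genes in all. Both strands were read, and a gene counted if any of its windows held the letters. The 27025 genes had 32851 windows and were not limited to genes detected here, while Slc29a1 alone had 8. The shares below are thus of unlike sets, and no test compared them. The motif TGATGNAA, bound by ATF4 with C/EBP factors in the response to amino acid shortage, was in 5 of the 46 (10.9%) and in 4.51% of all genes; GCGTGGGCG, bound by the EGR factors that T cell receptor signals induce, was in 2 (4.35%) and in 0.707%. The EGR variant GCGGGGGCG was in 2 (4.35%) and 3.31%, the E-box CACGTG in 7 (15.2%) and 8.09%, the HIF core ACGTG, which every E-box also holds, in 16 (34.8%) and 21.8%, and TGACGTCA in 0 and 2.03%. By direction, TGATGNAA was in 2 of 12 genes higher with MCC, 2 of 14 lower and 1 of 20 not called, and GCGTGGGCG in 2 of 12, 0 and 0. The E-box was in 1 of 12 higher, 1 of 14 lower and 5 of 20 not called, and the HIF core in 4, 3 and 9. GCGGGGGCG was in 0, 1 and 1. Printed below, 1 per gene, are windows of genes given above on every array that hold TGATGNAA or GCGTGGGCG. The matching letters of either strand are in capitals. The window of Slc1a4, higher with MCC, and those of Slc7a11 and Slc23a3, lower with MCC, hold TGATGNAA. It is also in windows of Slc9a9, which rose by a smaller amount, and Slc7a7, not called, which are not printed.
Slc1a4, chr11:20332664-20332963, minus strand: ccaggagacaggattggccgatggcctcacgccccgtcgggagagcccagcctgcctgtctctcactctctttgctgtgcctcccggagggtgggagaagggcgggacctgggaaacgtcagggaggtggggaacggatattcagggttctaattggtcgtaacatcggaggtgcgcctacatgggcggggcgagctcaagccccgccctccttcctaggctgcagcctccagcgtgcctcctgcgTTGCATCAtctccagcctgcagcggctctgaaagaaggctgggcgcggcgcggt
Slc7a11, chr3:50443564-50443863, minus strand: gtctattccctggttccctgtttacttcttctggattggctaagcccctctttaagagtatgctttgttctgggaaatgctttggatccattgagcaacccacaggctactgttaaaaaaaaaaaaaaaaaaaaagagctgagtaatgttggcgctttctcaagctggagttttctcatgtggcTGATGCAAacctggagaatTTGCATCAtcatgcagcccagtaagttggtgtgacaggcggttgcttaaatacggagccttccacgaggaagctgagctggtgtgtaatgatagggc
Slc23a3, chr1:75133841-75134140, minus strand: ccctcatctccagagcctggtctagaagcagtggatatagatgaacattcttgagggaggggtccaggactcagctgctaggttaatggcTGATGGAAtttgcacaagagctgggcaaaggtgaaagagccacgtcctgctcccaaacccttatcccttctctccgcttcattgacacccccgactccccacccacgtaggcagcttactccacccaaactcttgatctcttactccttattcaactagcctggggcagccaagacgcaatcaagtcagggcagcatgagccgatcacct
The windows of Slc7a6 and Slc29a1, both higher with MCC, hold GCGTGGGCG, and the window of Slc29a1 is 1 of 8 listed for that gene. Slc7a6 has 2 overlapping windows that hold the same match. It begins 6 bases after the start site of the printed window and 61 before that of the other.
Slc7a6, chr8:106168604-106168903, plus strand: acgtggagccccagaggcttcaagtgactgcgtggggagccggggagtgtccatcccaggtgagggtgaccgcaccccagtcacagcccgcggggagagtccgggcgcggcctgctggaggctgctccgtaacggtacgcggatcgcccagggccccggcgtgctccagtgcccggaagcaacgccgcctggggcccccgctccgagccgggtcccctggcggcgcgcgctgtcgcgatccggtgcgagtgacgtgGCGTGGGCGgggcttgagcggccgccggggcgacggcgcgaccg
Slc29a1, chr17:45595815-45596114, minus strand: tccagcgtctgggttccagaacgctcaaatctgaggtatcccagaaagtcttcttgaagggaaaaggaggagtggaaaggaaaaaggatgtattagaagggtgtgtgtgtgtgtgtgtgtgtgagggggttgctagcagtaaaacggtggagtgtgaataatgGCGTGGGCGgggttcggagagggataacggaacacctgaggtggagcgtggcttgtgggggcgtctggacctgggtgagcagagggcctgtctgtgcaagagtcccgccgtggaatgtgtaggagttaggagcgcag
The match of Slc1a4 begins 4 bases before its start site. In Slc7a11 there are matches beginning 66 and 47 bases before it. A match says only that these letters are there, and binding was not measured. Slc7a5 had no window in the table.

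Partners, pumps and regulators of the carriers were read in a list of 48 genes, of which 38 were on the array and 29 tested. With MCC against Hb 5 rose and 12 fell, and against gp250 6 rose and 12 fell, while none was called between gp250 and Hb. Over all tested genes 26.2% were higher and 28.8% lower against Hb, and 26.3% and 29.6% against gp250. These counts of the list depended on the scaling. With median scaling 5 rose and 9 fell against Hb, and 6 and 9 against gp250. Without scaling between arrays 6 rose and 9 fell against Hb, and 8 and 8 against gp250. The calls of Nprl2, Rragc and Chp1 against Hb were lost in both settings. Rragc (-0.26 without replicate 1 of Hb) and Chp1 (-0.34 without replicate 2 of Hb) also lost theirs without a single array. Of the partner chains, Emb, which escorts monocarboxylate carriers to the membrane, fell by 1.60 on the log2 scale and Bsg, which does the same, differed by -0.40 and was not called. The sodium pump subunit gene Atp1b1 fell by 1.63, Atp1b3 was not called, and Atp2b1, which encodes a calcium pump of the plasma membrane, rose by 2.03.

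Of 3 tested regulators of glucose carrier traffic 2 fell and 1 rose, where 28.8% of all tested genes fell and 26.2% rose against Hb. Txnip, whose product pulls glucose carriers from the surface, fell by 2.47, and its relative Arrdc4 by 1.30. Tbc1d1, a regulator of carrier vesicles, rose by 0.33, a call lost without either MCC or either Hb array (0.28 to 0.39). Oxsr1, which encodes a kinase that switches on the sodium-potassium-chloride cotransporter, rose by 0.88. In the same list Wnk1 differed from Hb by -0.21 and Stk39 by 0.01, and neither was called. Wnk1 was called lower than with gp250 (-0.29), a call lost when any single array was left out. Slc9a3r1, a scaffold for sodium-proton exchangers, fell by 0.76, and Tesc, a cofactor of the same exchangers, was at least 1.53-fold lower, a call lost without replicate 1 of Hb (-0.74) or replicate 1 of MCC (-0.73).

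In the amino acid sensing list, 12 genes were tested, and 1 rose and 4 fell against each of the other ligands. Of all tested genes 26.2% rose and 28.8% fell against Hb, and 26.3% and 29.6% against gp250. Rragd, which encodes a GTPase that recruits mTORC1 to the lysosome, fell by 2.72 and Sesn1, a leucine sensor gene, by 1.83, whereas its relative Sesn3 was at least 3.33-fold higher than with Hb, where it was below background. Mtor itself had 0.14 and was not called. Tfrc, which encodes the receptor for iron-loaded transferrin, rose by 2.11.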

How the data were processed

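Messenger RNA was measured on 6 Illumina mouse arrays, 2 for each ligand. The authors deposited a non-normalized intensity per probe, with its detection p-value, for every array, per the file headers. The deposited intensity goes below 0, so a background had been subtracted. A second table of the authors gives those intensities multiplied by 1 factor per array, 0.825 to 1.13. No scanner software is named in those sources.

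With limma 3.58.1 (R 4.3.3), neqc corrected the background by normexp, inferring its parameters from detection p-values, added an offset of 16, quantile-normalized the arrays and took log2. The offset pulls folds of dim probes towards 1. Probes detected at p under 0.05 on at least 2 of 6 arrays were tested, 11942 of 25697. A linear model with 1 mean per ligand left 3 residual degrees of freedom. Moderated tests were adjusted by Benjamini-Hochberg over all tested probes in each comparison, and called at 0.05. The brightest tested probe stands for a gene. Errors are standard errors from limma. The linear model and its calls were tested on simulated data, but the background correction, normalization, detection filter and bounds were not.

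The members and gene lists were chosen with earlier results of these data known. Genes called at 2-fold or more against Hb or gp250, and Slc2a1, Slc7a5 and Slc3a2, are given on every array. Most other tested genes are given by their differences or only as not called. Slc6a2, Slc4a3, Slc4a4 and Slc8a1, not called in either MCC comparison, are not described. Slc2a3 was added on every array after its values were seen. Of partners and regulators, those given were picked after their values were seen. Probe names are from the platform annotation. Promoters are from RefSeq, GRCm38.p6.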

Additional observations from a re-analysis of the deposited data

How the results depend on the processing

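The settings tried were an offset of 50, no background correction, median scaling, no scaling, the authors' table, no filter on dim probes, detection on all 6 arrays, an intensity trend, only the 4 arrays compared, a replicate block, and leaving out each array. The calls of 2-fold or more, 17 against Hb and 15 against gp250, were kept in each setting in which the gene was tested. Of all calls, 27 of 36 and 25 of 38 were kept throughout. Without each array in turn, 16 to 19 transporters were higher and 13 to 18 lower against Hb, and 15 to 18 and 17 to 20 against gp250. Without scaling between arrays, 11 transporters were lower with MCC than gp250 in place of 20. In that setting the log2 difference turned for Rragc against Hb (0.0131) and against gp250 (0.0269), for Wnk1 against gp250 (0.0657) and for Atp1b3 against gp250 (0.41, called higher). That setting leaves in the difference of the median probe between ligands. The list of partners and regulators was put through the same alternatives, chosen for it after seeing the data.

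With the replicate number as a block, 20 transporters were higher and 17 lower against Hb, 19 and 18 against gp250, and 0 were called between gp250 and Hb. Same-numbered arrays of the ligands showed deviations that correlated at 0.017, -0.00391 and -0.0228 over probes, so the numbers were not taken as pairs. Signal near background left 76 of the 137 genes untested.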
